A study of Canis lupus familiaris with 31 samples.

Results

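HTG, a raised concentration of triglycerides in the blood, is frequent in the Miniature Schnauzer. The comparison described here is restricted to the dogs that were also overweight. The members were the 16 of 31 dogs whose body condition score, a visual and palpation grade of fatness that runs up to 9, was at least 6. They were 8 HTG cases and 8 control dogs with normal triglycerides. The score was read from the study's table of dogs and not from the counts. The other 15 dogs, 5 cases and 10 controls with a score under 6, were used only to ask whether the case against control difference was the same in leaner animals.

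All dogs were purebred Miniature Schnauzers, client-owned and on commercial diets, and all gave fasted blood. Of the controls, 2 lived in 1 household on a shared diet, and which ones is not given in the sources used here. The 8 overweight cases were 5 males and 3 females aged 8 to 12 years, of which 2 had a score of 7 and 6 had a score of 6. The 8 overweight controls were 5 males and 3 females aged 7 to 13 years, of which 3 had a score of 7 and 5 had a score of 6. The 5 cases under 6 were 3 males and 2 females aged 9 to 14 years. The 10 controls under 6 were 5 males and 5 females aged 8 to 11 years. All males were castrated and all females spayed, except 1 intact female, a case under 6. RNA of whole blood was sequenced as 1 library per dog after removal of ribosomal RNA, so every p-value measures the spread between dogs. The dogs are numbered in the order of their triglycerides within each group, and the overweight cases hold nearly all of the highest values. A difference between score classes therefore cannot be told apart from a difference in the severity of HTG.

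Whole blood RNA comes from neutrophils, lymphocytes, monocytes, reticulocytes and platelets. Platelets have no nucleus, and their transcripts were laid down by the megakaryocyte that shed them. They carry adhesion receptors on the surface (integrins, and the glycoprotein Ib complex that binds von Willebrand factor), granules filled with clotting and growth factors, and an actin and tubulin skeleton governed by small GTPases. Triglyceride-rich lipoproteins are cleared mainly by lipoprotein lipase at the endothelium of muscle and fat, tissues that blood RNA does not sample.

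The overweight libraries held between 14524659 and 41533599 counts on genes, with 16363134 to 24269376 in the cases and the 3 deepest libraries all from controls. Cases and controls showed no detectable difference in the log10 total (two-sided exact permutation test, P = 0.265, adjusted over 5 library measures 0.667). Control 03 stood apart from the other overweight controls, with the fewest counts, 42.6% of them on the 20 most abundant genes against at most 27.2% in the other controls, and the haemoglobin gene HBM at 0.364% of counts against at most 0.0769%. The counts over all genes and several of the gene lists are given with and without it. Over 366 rows of small non-coding RNAs the 31 dogs also separated into 10 with high and 21 with low levels. This division was seen in the data, and 3 overweight cases and 1 overweight control lay on its high side. That control was control 03, so every value given for the low side also leaves it out. Mature neutrophils were well represented, with the receptor gene CSF3R between 2819.8 and 5250.2 CPM (counts scaled to library size) in the 16 dogs.

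In edgeR, no gene passed an adjusted P-value of 0.05 in the comparison of the overweight cases with the overweight controls. Of 13766 genes tested with edgeR's quasi-likelihood test, 0 passed, and 1036 (7.53%) lay under 0.05 before adjustment. Of these, 552 genes (4.01%) were higher and 484 genes (3.52%) were lower in the cases, and the median log2 fold change of all genes was −0.03. Limma-voom also called 0 genes, while DESeq2 called 79, of which 69 (0.501%) were higher in the cases and 10 (0.0726%) were lower. The count rested on control 03. Without this dog, edgeR called 74 genes, 69 of them higher and 5 lower, and 2249 genes lay under 0.05 before adjustment. The 74 genes and the 79 genes of DESeq2 shared 27, which are 36.5% of the former and 34.2% of the latter. Without case 03 edgeR called 2 genes, ARHGAP29 and a gene with no symbol, and with any other single dog left out it called 0. With case 01 and control 03 both left out, it called 3.

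**Figure D1:**
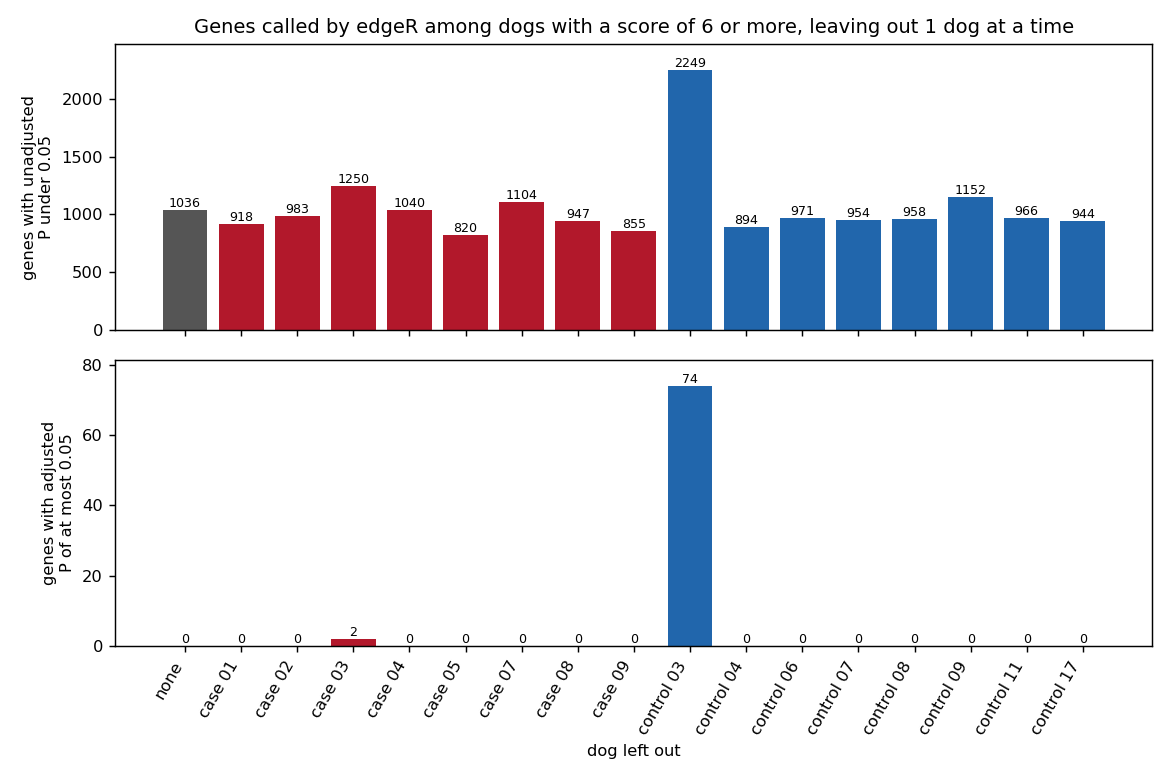
Number of genes that edgeR called among the overweight dogs with all 16 dogs (grey) and with each case (red) or control (blue) left out, at an unadjusted P-value under 0.05 (upper panel) and at an adjusted P-value of at most 0.05 (lower panel). Leaving out control 03 gave 2249 and 74 genes, against 1036 and 0 with all dogs.

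Complete separation of the groups was rare. All 8 cases lay above all 8 controls for 3 of the 13766 genes (0.0218%), and below them for 3 (0.0218%). The 3 higher genes were ARHGAP29, MMRN1 and NLK, of which NLK (nemo-like kinase) falls outside the rule for named genes and was chosen after its values were seen. NLK lay between 82.6 and 227 CPM in the cases (median 105) and between 47.4 and 80.5 CPM in the controls (median 69.4), with a log2 fold change of 0.91 and an adjusted P-value of 0.0105 in DESeq2 and of 0.0498 in edgeR without control 03. The lower genes, named on the same footing, were ALG3 and ALG6, which add sugars to the lipid-linked precursor of N-glycans, and KIF2C, a kinesin of the mitotic spindle. Their differences were small, with log2 fold changes of −0.39, −0.31 and −0.29, and both groups of ALG3 nearly touched, at 6.401 CPM in the highest case and 6.405 CPM in the lowest control.

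The 10 genes with the smallest P-values and a symbol are described next. None passed the adjusted threshold in edgeR when all 16 dogs were compared, while DESeq2 called all 10. ARHGAP29 encodes a GTPase activating protein, which switches small GTPases off. It was at 1.73 to 18.4 CPM in the overweight cases, with a median of 5.95, and at 0.218 to 1.47 CPM in the overweight controls, with a median of 1.13. The lowest case was above the highest control, and the spread within the cases was wide. Its log2 fold change was 2.87 (SE 0.46, edgeR unadjusted P = 7.77e-06, adjusted P = 0.107). The adjusted P-value was 3.32e-07 in DESeq2, 0.0290 in edgeR without control 03 and 0.0199 without case 03. On the low side of the small RNA division the log2 fold change was 2.28. These values rest on few reads, since the controls had 5 to 56 counts of ARHGAP29 and the cases 44 to 313.

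MMRN1 encodes multimerin 1, a large adhesive protein stored in platelet granules and made by endothelial cells. The cases lay between 25.6 and 96.4 CPM (median 42.3) and the controls between 7.80 and 23.9 CPM (median 13.8), so the ranges came close without meeting. Its log2 fold change was 1.72 (SE 0.31, edgeR unadjusted P = 3.40e-05, adjusted P = 0.234), and its adjusted P-value without control 03 was 0.0343. EGF, the epidermal growth factor that platelets carry in their granules, was at 78.2 to 197 CPM in the cases (median 141) and at 41.8 to 94.7 CPM in the controls (median 71.0). Its log2 fold change was 1.00 (SE 0.20, unadjusted P = 0.000109, adjusted P = 0.254), and 7 of 8 cases were above the highest control, which was control 03. PRKG1, the cGMP-dependent kinase of platelets and smooth muscle, was at 5.58 to 16.6 CPM in the cases (median 9.00) and 1.83 to 8.06 CPM in the controls (median 3.77), a log2 fold change of 1.39 (SE 0.28, unadjusted P = 0.000129, adjusted P = 0.254).

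CISH encodes a cytokine-induced inhibitor of STAT signalling. In the cases it ranged from 49.6 to 130 CPM, with a median of 64.4, and in the controls from 32.0 to 52.9 CPM, with a median of 35.1. Only control 03 overlapped the cases. The log2 fold change of CISH was 0.92 (SE 0.18, unadjusted P = 8.21e-05, adjusted P = 0.254). It was called by DESeq2 and by edgeR without control 03, as EGF and PRKG1 were, and it was also among the 3 genes called without both case 01 and control 03 (log2 fold change 0.84, adjusted P = 0.0392). The other 2 of those 3 were ACE, angiotensin-converting enzyme, and a gene with no symbol.

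SLCO2B1, an organic anion transporter, was present at a low level. The cases had 2.62 to 5.92 CPM (median 3.76) and the controls 1.33 to 2.83 CPM (median 1.99), with 7 of 8 cases above the highest control. ARHGAP21, a second GTPase activating protein, was at 23.8 to 49.8 CPM in the cases (median 36.7) and 20.2 to 26.7 CPM in the controls (median 23.7). The log2 fold changes were 1.01 for SLCO2B1 (SE 0.20) and 0.64 for ARHGAP21 (SE 0.14). The membrane protein gene TMEM117 and the PIWI family gene PIWIL3 had log2 fold changes of 0.98 (SE 0.21) and 1.30 (SE 0.28). PIGL, an enzyme of glycosylphosphatidylinositol anchor synthesis, was the 1 gene of these 10 that was lower in the cases. It was at 3.86 to 4.83 CPM in the cases and 4.66 to 8.70 CPM in the controls, with only control 03 inside the range of the cases, and a log2 fold change of −0.64 (SE 0.14). All 10 genes, TMEM117 excepted, were called by edgeR without control 03, and all 10 were called by DESeq2.

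**Figure D2:**
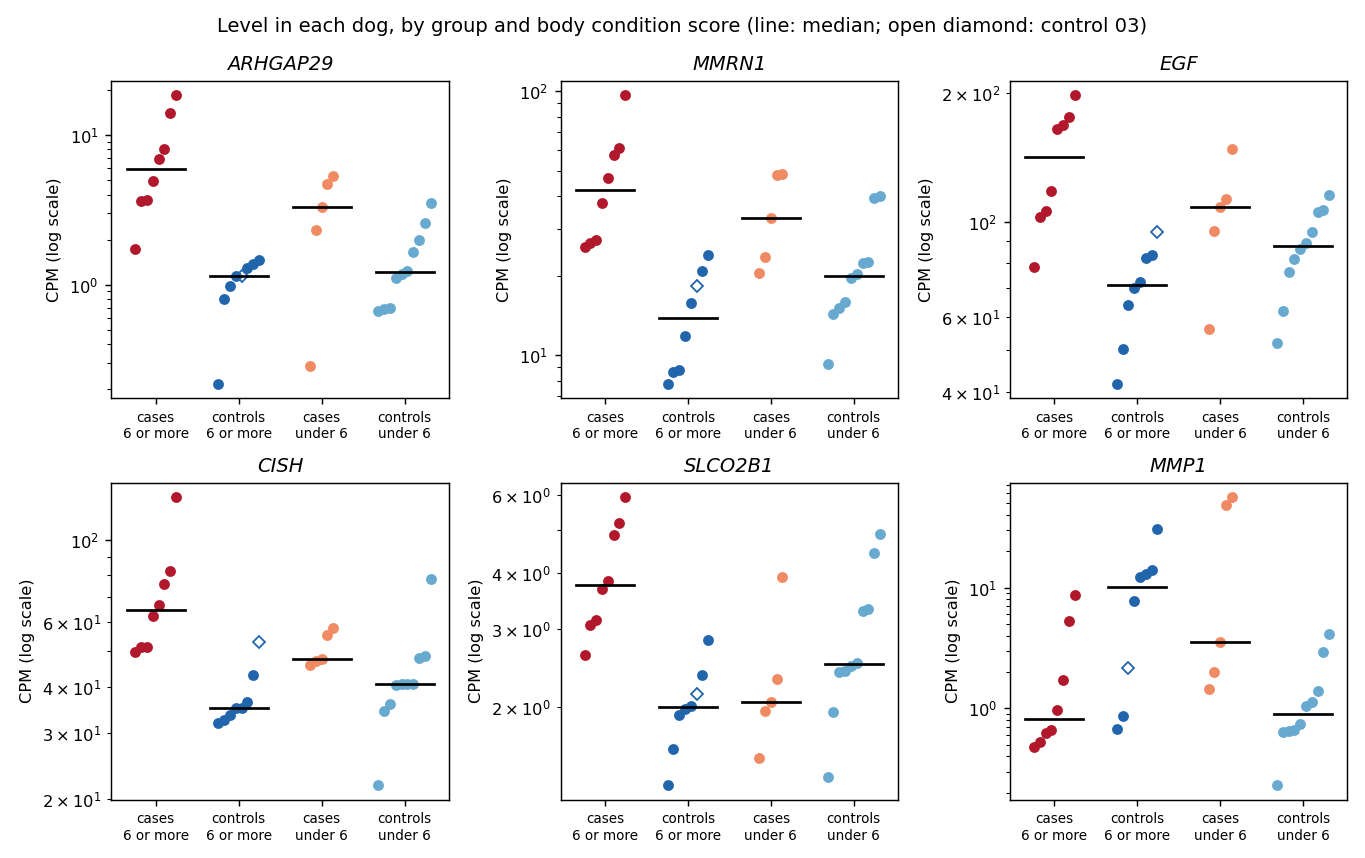
CPM on a log axis of ARHGAP29, MMRN1, EGF, CISH, SLCO2B1 and MMP1 in each dog, for cases and controls with a body condition score of 6 or more and under 6. Each point is 1 dog, the line is the group median and the open diamond is control 03, and the overweight cases lie above the overweight controls without overlap for ARHGAP29 and MMRN1.

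Genes from the study's own comparison of all its cases and controls were next examined in the overweight dogs alone. They are genes that led it, together with CHST9, which came further down. They were chosen on all 31 dogs, these 16 included, so their direction here is not independent evidence. The filter kept 8 of the 9 genes, and each of the 8 was higher in the overweight cases at an unadjusted P-value under 0.05, against 4.01% of all genes, with a median log2 fold change of 1.04. Beside ARHGAP29, ARHGAP21 and MMRN1 these were the Wnt receptor gene FZD7 (log2 fold change 1.15, SE 0.25), the endocytic adaptor gene STON2 (0.93, SE 0.21), the sulfotransferase gene CHST9 (1.62, SE 0.44), the sialyltransferase gene ST6GALNAC4 (0.70, SE 0.21) and RTN4, a membrane protein of the endoplasmic reticulum (0.24, SE 0.07). With the mean level of platelet markers in the model 6 of the 8 were higher, against 2.11% of all genes, with ST6GALNAC4 at 0.18 (unadjusted P = 0.248), CHST9 at 1.07 (unadjusted P = 0.0805) and STON2 at 0.41. CHST9 was present at a low level, with 0.401 to 2.62 CPM in the cases and 0.131 to 0.761 CPM in the controls. SLPI, a secreted protease inhibitor, did not pass the filter on low counts in the overweight dogs. It lay between 0.196 and 3.89 CPM in the cases and between 0.0436 and 1.51 CPM in the controls. RHOA, a small GTPase of the actin skeleton, was at 234 to 321 CPM in the cases and 249 to 384 CPM in the controls (log2 fold change −0.08, SE 0.10, unadjusted P = 0.406).

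A longer pair of lists came from all the dogs as well. Of 78 genes on the list of higher genes, 72 were tested in the overweight dogs. These lists hold the genes used here and not everything the study called. All 72 had a positive log2 fold change, and 67 had an unadjusted P-value under 0.05, against 4.01% of all genes, with a median of 0.89. With the mean level of platelet markers in the model, 25 of 72 did, against 2.11% of all genes, and the median was 0.36. Of 16 genes on the list of lower genes, 14 were tested and 10 had an unadjusted P-value under 0.05, against 3.52% of all genes, with a median of −0.24. With the platelet markers in the model 1 of 14 did, against 2.62% of all genes, and the median was −0.15. The same circularity applies to both lists.

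The platelet genes were examined as 3 lists of adhesion and activation receptors, granule cargo and structural genes, in each of which some members were higher in the overweight cases and others did not pass the test. Among adhesion and activation receptors, 10 of 17 tested genes were higher and 0 were lower at an unadjusted P-value under 0.05, where 4.01% of all genes were higher, and the median log2 fold change was 0.64. For granule cargo the count was 7 of 15 with a median of 0.57, and for the skeleton, signalling and megakaryocyte factors it was 13 of 20 with a median of 0.65. No member passed the adjusted threshold in edgeR, while DESeq2 called 2 receptors, 2 granule genes and 4 structural genes as higher, against 0.501% of all genes. Several members of these lists are also among the genes the study called. A list of 12 platelet markers without any of those genes had 7 of 10 tested members higher and 0 lower, with a median of 0.76. All 10 are also members of the other lists, 7 of the receptors, 2 of the granule genes and 1 of the structural genes, so that this count repeats part of the counts above. In RNA of whole blood, more or fewer cells of a type and more or less RNA per cell cannot be told apart. On the low side of the small RNA division, with 5 cases and 7 controls, the medians were 0.70 for receptors, 0.78 for granule cargo and 0.65 for structure.

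Among the receptors, integrin ITGB3, which pairs with ITGA2B to bind fibrinogen, was at 663 to 1853 CPM in the cases (median 1047) and 283 to 884 CPM in the controls (median 516). The log2 fold change was 1.03 (SE 0.25, unadjusted P = 0.000801), and 6 of 8 cases were above every control. GP1BB, a subunit of the von Willebrand factor receptor, had a log2 fold change of 1.30 (SE 0.35), with 53.4 to 182 CPM in the cases and 18.9 to 89.8 CPM in the controls. ITGB1, the integrin subunit shared by collagen and fibronectin receptors, had a log2 fold change of 0.58 (SE 0.16). Its highest control, at 506 CPM, was control 03, and ITGB1 was among the genes called without this dog (log2 fold change 0.73, adjusted P = 0.0290).

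For granule cargo, MMRN1 and EGF led the list and were followed by ENDOD1 (log2 fold change 0.75, SE 0.21). SELP, the P-selectin that moves from granules to the surface of activated platelets, was at 162 to 320 CPM in the cases (median 219) and 61.4 to 244 CPM in the controls (median 145), a log2 fold change of 0.73 (SE 0.24, unadjusted P = 0.00700). The chemokine gene PPBP, the most abundant of the platelet markers, was nearly level. It had 1508 to 2773 CPM in the cases and 389 to 3415 CPM in the controls, with a log2 fold change of 0.19 (SE 0.32, unadjusted P = 0.555), which was 0.41 without control 03 and 0.04 without control 17.

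In the structural and signalling list, PRKG1 and STON2 were joined by the diacylglycerol kinase gene DGKH, with a log2 fold change of 0.93 (SE 0.23) and 62.6 to 166 CPM in the cases against 25.5 to 68.4 CPM in the controls. The myosin light chain gene MYL9 and the collagen receptor gene GP6, both in the marker list, had log2 fold changes of 0.92 (SE 0.31) and 0.83 (SE 0.28). TLN1, the talin that activates integrins and the most abundant gene of the list, was at 3403 to 4206 CPM in the cases and 2805 to 4015 CPM in the controls, with a log2 fold change of 0.19 (SE 0.12, unadjusted P = 0.138).

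**Figure D3:**
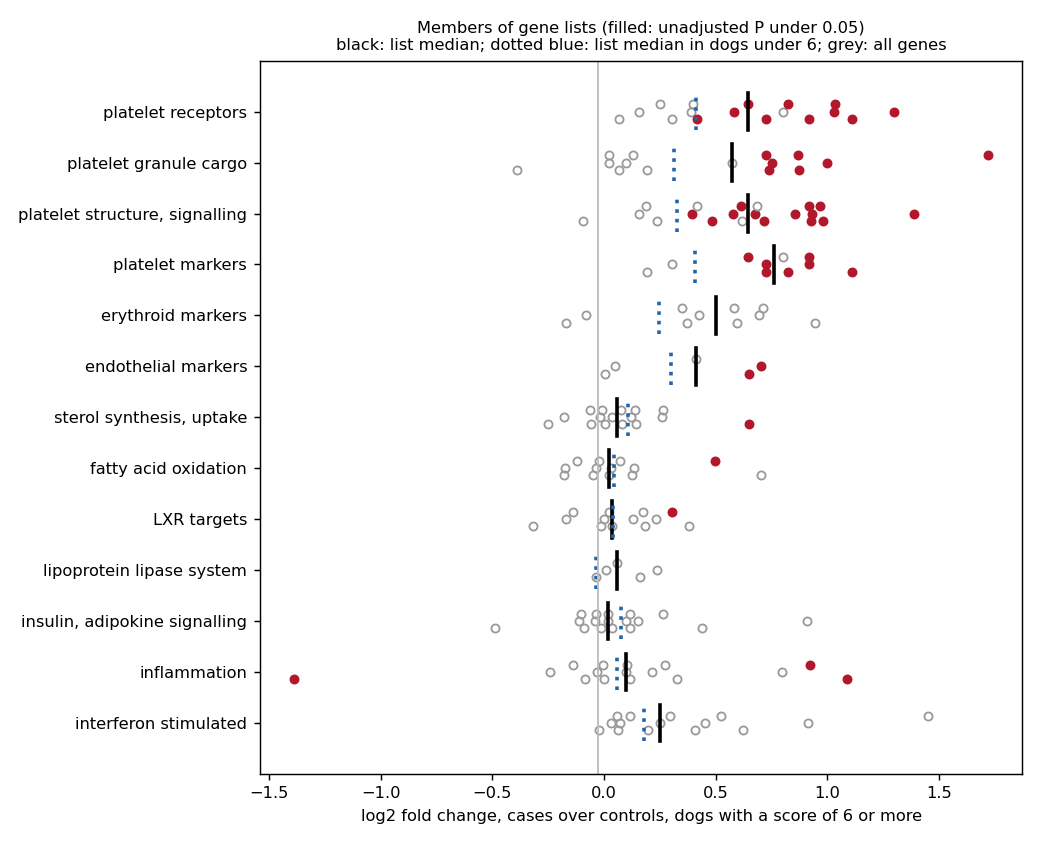
Log2 fold change of overweight cases over overweight controls for each tested member of 13 gene lists. Filled red points had an unadjusted P-value under 0.05, the black bar is the median of the list, the dotted blue bar its median in the dogs under 6 and the grey line the median of all genes. The 4 platelet lists had medians between 0.57 and 0.76, and the lists of lipid metabolism lay close to 0.

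The summed level of the 10 platelet markers found overlapped between the groups, and PPBP alone made up 54.7% to 80.5% of it. The sum ran from 2283 to 3905 CPM in the overweight cases (median 2876) and from 687 to 4567 CPM in the overweight controls (median 2481). Control 03 held the highest sum of all 16 dogs, while controls 17 and 09 held the lowest, at 687 and 1049 CPM. With the platelet marker score, the mean log2 CPM of those markers, as a covariate, the median log2 fold changes were 0.09 for the receptors, 0.15 for granule cargo and 0.18 for the structural list, and 1, 2 and 3 of their members were higher at an unadjusted P-value under 0.05, where 2.11% of all genes were. The score holds 10 of the 52 members, so part of this is set by its construction. Over the members that are not markers, the medians without the score were 0.41 for 10 receptors, 0.57 for 13 granule genes and 0.62 for 19 structural genes, and with it 0.23, 0.24 and 0.18. ARHGAP29 had a log2 fold change of 1.80 (unadjusted P = 0.00175), MMRN1 of 0.86 (P = 0.00237), EGF of 0.50 (P = 0.0103) and PRKG1 of 0.72 (P = 0.00543) in that fit. SLCO2B1 and CISH were little moved, at 1.12 and 0.79. Without controls 09 and 17, which were left out after the data were seen, the medians of the 3 lists were 0.49, 0.46 and 0.51.

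Markers of other blood cells were set beside these values. The 10 erythroid markers found of 11 listed, genes of reticulocytes such as the haem synthesis gene ALAS2, summed to 1121 to 20478 CPM in the overweight cases (median 6401) and to 918 to 34507 CPM in the overweight controls (median 1909.7). The highest control was control 03, and the next was at 5478 CPM. With all 16 dogs, 0 of 10 tested erythroid genes had an unadjusted P-value under 0.05, and their median log2 fold change was 0.50. Without control 03, 8 of 10 were higher, where 10.1% of all genes were, and the median was 1.38. Without case 01 the median was −0.074. Without both case 01 and control 03, 5 of 10 were higher, where 8.66% of all genes were, and the median was 1.13. Among the 5 cases and 7 controls on the low side of the small RNA division, which also lacks control 03, the median was 1.52. ALAS2 itself was at 545 to 14224 CPM in the cases (median 4554) and 479 to 23603 CPM in the controls (median 1100.1), with a log2 fold change of 0.37 (SE 0.83). The erythroid markers moved with the same dog on which the count of 74 genes rested, and their part in that count was not tested. Without control 03 the platelet lists had medians of 0.86, 0.65 and 0.75, with 13 of 17, 8 of 15 and 15 of 20 members higher.

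Granulocyte precursor markers, of which 6 of 11 were tested, had a median log2 fold change of 0.87, with 2 higher at an unadjusted P-value under 0.05, where 4.01% of all genes were. Without controls 09 and 17, 5 of 6 were higher, where 4.07% of all genes were, and the median was 1.58. With 1 dog left out it ranged from 0.58 without case 01 to 1.54 without control 09. The 2 that were higher with all 16 dogs were granule enzyme genes. MPO was at 0.886 to 8.88 CPM in the cases and 0.131 to 3.78 CPM in the controls (log2 fold change 1.83, SE 0.67). CTSG had a log2 fold change of 1.18 (SE 0.55). The summed level of the 8 markers found was 518 to 2932 CPM in the cases (median 980.4) and 301 to 3404 CPM in the controls (median 542), with control 09 highest. Mature neutrophil markers, with 6 genes tested, had a median of −0.06 and sums of 5482 to 8764 CPM in the cases and 4899.9 to 15992 CPM in the controls. In this list and in those of monocytes (7 genes, median 0.16), cytotoxic lymphocytes (8 genes, 0.45), and eosinophils and basophils (6 genes, −0.19), 0 genes had an unadjusted P-value under 0.05 in edgeR and DESeq2 called 0. With 1 dog left out the median of the cytotoxic lymphocyte markers ranged from 0.18 without case 05 to 0.71 without control 07, and that of the T cell markers from −0.35 without case 03 to −0.15 without case 01. T cell markers had a median of −0.22, with 1 of 9 genes lower at an unadjusted P-value under 0.05 in edgeR, where 3.52% of all genes were. It was the surface gene CD5 (log2 fold change −0.42, SE 0.19, adjusted P = 0.624). B cell markers had a median of 0.28, with 1 of 8 genes higher, where 4.01% of all genes were. It was the adaptor gene BANK1 (0.55, SE 0.16, adjusted P = 0.387). Of 9 endothelial markers 5 were tested, EMCN had 0 counts in all 16 dogs, and the 2 with an unadjusted P-value under 0.05 were PECAM1 (0.65, SE 0.15) and the growth factor receptor gene KDR (0.70, SE 0.17), both higher, as were 4.01% of all genes. DESeq2 called both, with adjusted P-values of 0.0249 and 0.0294. With the platelet marker score in the model PECAM1 was at 0.30 and KDR at 0.29, and 0 of these 5 markers passed an unadjusted P-value of 0.05 in edgeR. Without control 03, 3 of the 5 were higher, where 10.1% of all genes were, and the median was 0.59 against 0.41 with all 16 dogs. PECAM1 is also a platelet gene. Without controls 09 and 17, where 4.07% of all genes were higher and 2.86% lower, 2 of 6 neutrophil markers (median 0.30), 2 of 7 monocyte markers and 2 of 8 B cell markers were higher and 3 of 9 T cell markers were lower. A count of 0 allows up to 3 counts per library, or 0.0722 CPM in the deepest and 0.207 CPM in the shallowest library, for counting error only.

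**Figure D4:**
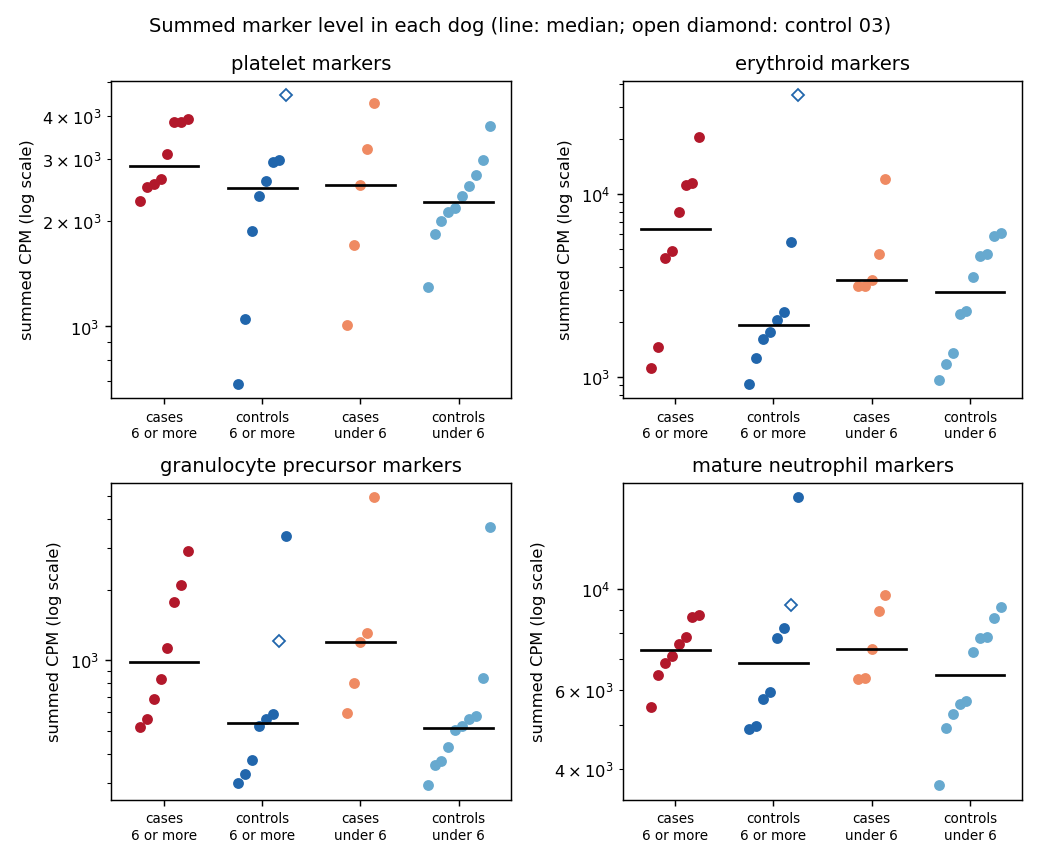
Summed CPM on a log axis of markers of platelets, erythroid cells, granulocyte precursors and mature neutrophils in each dog, by group and body condition score. Each point is 1 dog, the line is the group median and the open diamond is control 03, which has the highest platelet sum of the overweight dogs (4567 CPM) and the highest erythroid sum (34507 CPM).

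Lists of lipid genes had medians near that of all genes, and their shares of higher members stand against 4.01% of all genes. In cholesterol synthesis and LDL uptake 1 of 16 genes was higher, the lanosterol synthase gene LSS (log2 fold change 0.65, SE 0.27, and 0.41 without case 01), with a median of 0.06. Fatty acid oxidation had 1 of 13, the thiolase gene ACAA2 (0.50, SE 0.16), with a median of 0.02. Targets of the liver X receptor, which governs cholesterol efflux, had 1 of 13, the HDL receptor gene SCARB1 (0.30, SE 0.13), with a median of 0.04. Of the lipoprotein lipase system only 5 of 13 genes passed the filter, and 0 of them had an unadjusted P-value under 0.05 in edgeR and 0 were called by DESeq2. The one with the smallest P-value was LIPE, hormone-sensitive lipase (0.24, SE 0.12, unadjusted P = 0.0673). LPL was at 0 to 0.586 CPM in the cases and 0 to 0.392 CPM in the controls, so that a difference in this gene was not detectable at this depth.

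Insulin and adipokine signalling (17 genes, median 0.02) and interferon stimulated genes (15 genes, median 0.25) had 0 genes with an unadjusted P-value under 0.05 in edgeR and 0 called by DESeq2. Without control 03, 2 of 17 and 1 of 15 were higher, where 10.1% of all genes were. ISG15, the interferon gene with the smallest P-value, was at 3.42 to 100.5 CPM in the cases and 1.62 to 15.6 CPM in the controls (log2 fold change 1.45, SE 0.70, unadjusted P = 0.0531). The highest case was case 01, and the next was at 20.3 CPM. Without case 01 the log2 fold change of ISG15 was 0.30 (unadjusted P = 0.567). Of 16 inflammation genes, CISH and the neutrophil chemokine gene CXCL8 were higher and the decoy receptor gene IL1R2 was lower at an unadjusted P-value under 0.05, which is 2 of 16 higher, against 4.01% of all genes, and 1 of 16 lower, against 3.52%. CXCL8 was at 10.1 to 55.0 CPM in the cases and 4.34 to 35.9 CPM in the controls (1.09, SE 0.44). IL1R2 had a log2 fold change of −1.39 (SE 0.63), with control 09 at 59.3 CPM against 2.33 to 6.93 CPM in the cases, and of −0.06 without control 09. Glucocorticoid responsive genes had 0 of 10 with an unadjusted P-value under 0.05 in edgeR, 0 called by DESeq2 and a median of −0.17. This median was 0.0024 without control 03 and 0.0126 without controls 09 and 17. The reference genes GUSB and HNRNPH1 had log2 fold changes of 0.24 (SE 0.21) and −0.22 (SE 0.16), and GUSB was at 0.47 without control 03.

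The same comparison was made in the 15 dogs under 6, which share no dog with the overweight ones. Of 14293 genes, edgeR called 0, DESeq2 called 3, and 705 (4.93%) lay under 0.05 before adjustment. Over the 13704 genes tested in both classes, the log2 fold changes of the 2 classes had a Pearson correlation of 0.13 and a Spearman correlation of 0.17 across genes, which are not independent. The platelet lists had medians in the dogs under 6 of 0.41 for receptors, 0.31 for granule cargo and 0.33 for structure, and with 3 of 17, 2 of 15 and 3 of 20 members higher, where 2.34% of all genes were, and 0 lower, where 2.59% of all genes were. In the interaction contrast described next, 1 of 17, 2 of 15 and 1 of 20 members had an unadjusted P-value under 0.05, against 3.87% of all genes. ARHGAP29 had a log2 fold change of 1.05 (SE 0.49) in the dogs under 6 and MMRN1 of 0.66 (SE 0.30). For CHST9 and ST6GALNAC4 the values under 6 were 1.36 and 0.67.

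Whether the difference between cases and controls itself differed between the classes was tested with an interaction contrast over all 31 dogs. No gene of 13918 passed the adjusted threshold in edgeR, limma-voom also called 0, and 538 genes (3.87%) lay under 0.05 before adjustment. Of these, 253 (1.82% of all) were more positive in the overweight dogs. DESeq2 called 3 genes, MMP1, OLIG1 and a gene with no symbol, all more negative in the overweight dogs. The difference of the log2 fold changes was 1.80 for ARHGAP29 (SE 0.70, unadjusted P = 0.0149), 1.05 for MMRN1 (SE 0.46, P = 0.0301), 0.69 for CISH (P = 0.0207) and 0.74 for EGF (P = 0.0197), each with an adjusted P-value of 0.999. These genes were named for their small P-values in the overweight dogs. The same overweight values enter this contrast, so smaller fold changes under 6 are not independent evidence of a class difference. Of the 72 tested genes on the longer list of higher genes, 13 had an unadjusted P-value under 0.05 in this contrast, against 3.87% of all genes. All 13 were more positive in the overweight dogs, against 1.82% of all genes. The list was chosen on all 31 dogs, and 8 of the 13 cases were overweight, so this sign is not independent evidence. Of the 14 tested genes on the list of lower genes, 1 had an unadjusted P-value under 0.05 here, and it was more positive.

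SLCO2B1 was the gene with a symbol whose difference was the most positive in its P-value. Its overweight values are given above, and under 6 it was at 1.53 to 3.92 CPM in the cases and 1.39 to 4.90 CPM in the controls. The log2 fold change was 1.01 in the overweight dogs and −0.31 under 6, a difference of 1.32 (SE 0.35, unadjusted P = 0.000774, adjusted P = 0.999). MMP1, the interstitial collagenase, had the smallest P-value. The overweight cases were at 0.477 to 8.68 CPM (median 0.810) and the overweight controls at 0.671 to 30.7 CPM (median 10.0), while under 6 the cases were at 1.46 to 56.0 CPM (median 3.52) and the controls at 0.231 to 4.15 CPM (median 0.889). The log2 fold change was −2.10 (SE 0.79) in the overweight dogs and 3.99 (SE 0.76) under 6, a difference of −6.09 (SE 1.16, unadjusted P = 1.15e-05, adjusted P = 0.160 in edgeR and 0.00138 in DESeq2). Under 6, cases 11 and 13 were at 47.9 and 56.0 CPM. Of the overweight dogs, 5 of the 8 controls lay between 7.73 and 30.7 CPM, as did 1 of the 8 cases, at 8.68 CPM.

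ARHGAP1, a GTPase activating protein that acts mainly on CDC42, and MAPK7, the kinase ERK5, had fold changes of opposite sign in the classes, each of them small. ARHGAP1 had log2 fold changes of −0.27 in the overweight dogs and 0.32 under 6 (difference −0.59, SE 0.13, unadjusted P = 0.000118, adjusted P = 0.546). For MAPK7 the values were −0.23 and 0.28 (difference −0.51, SE 0.12, unadjusted P = 0.000195, adjusted P = 0.677). ITIH4, an acute phase protein, was at 0.477 to 1.60 CPM in the overweight cases and 1.01 to 12.4 CPM in the overweight controls. Its difference was −2.23 (SE 0.61, unadjusted P = 0.00100, adjusted P = 0.999).

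**Figure D5:**
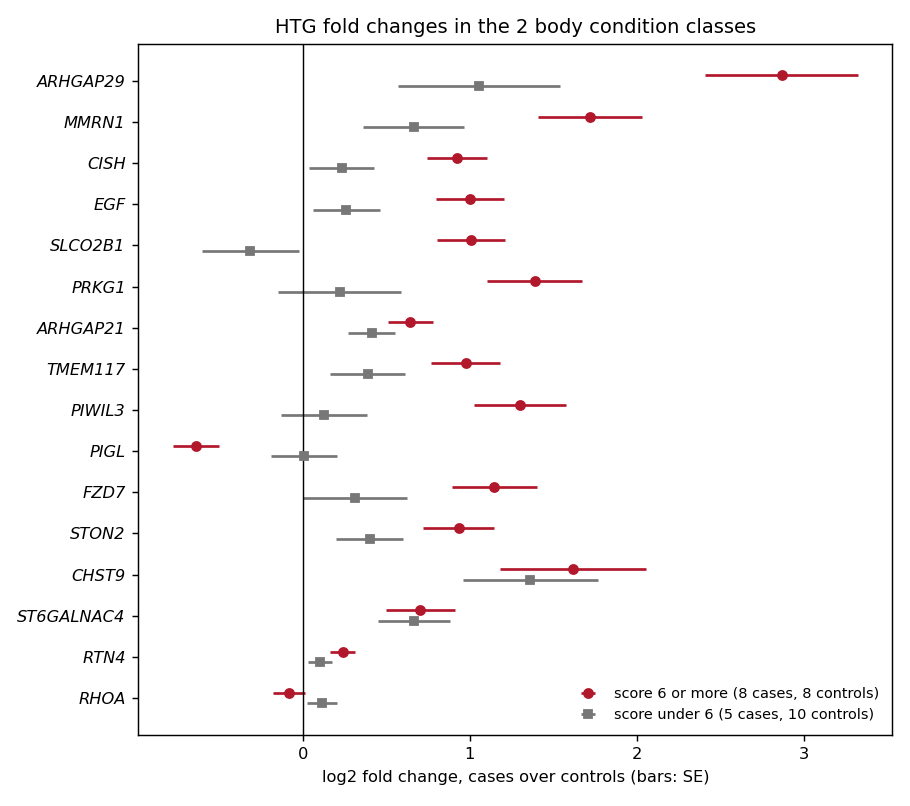
Log2 fold change of cases over controls with its SE for the 10 genes with the smallest P-values in the overweight dogs and for the genes from the study's comparison with RHOA, in dogs with a score of 6 or more (red circles) and under 6 (grey squares). ARHGAP29 is at 2.87 and 1.05, SLCO2B1 at 1.01 and −0.31, and CHST9 at 1.62 and 1.36. The 10 genes were chosen on the overweight values, a choice that favours larger changes in that class.

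Among the overweight dogs, 52.6% of the variance in the 500 genes that varied most lay on principal component 1. Mean scores were 6.46 ± 17.6 (SD) in the 8 cases and −6.46 ± 22.0 in the 8 controls, which is a difference of 12.9 (two-sided exact permutation test, P = 0.217). Control 03 lay at 43.6, and the next control was at 4.91. Without case 01 and control 03 the difference was 17.2. Control 03 stood apart on this component itself, so this is given as a value, with no test. Within the 5 cases and 7 controls on the low side of the small RNA division the difference on the same component was 17.4 (exact permutation test, P = 0.0997). The high side held 1 control, which was control 03, and gave no value. The second component, with 9.83% of the variance, differed by 1.42 between the groups (exact permutation test, P = 0.763), and by −5.95 on the low side (exact permutation test, P = 0.0669).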

How the data were processed

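Whole blood RNA of 31 Miniature Schnauzers was sequenced with a stranded total RNA kit that removes ribosomal RNA. Trimmomatic was used for trimming and HISAT2 for alignment, and a pair was counted on a gene only if both of its mates aligned. The deposited values are raw counts from the authors, not normalized. The paper names the Dog10K_Boxer_Tasha assembly, while the rows carry Ensembl dog identifiers, so no coordinates or sequences are given. Rows with no symbol held 24.9% of the counts and were tested with the rest.

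Group and sex came from the labels, and age and body condition score from the paper's table of dogs. In R 4.3.3, edgeR 4.0.16 filtered genes with filterByExpr by group, normalized with TMM and compared the 8 cases with the 8 controls by glmQLFit and glmQLFTest, with Benjamini-Hochberg adjustment over all genes tested and a threshold of 0.05. Fold changes come from this fit. CPM values were normalized over all 31 dogs, with a prior count of 2 on the log2 scale. The interaction contrast used all 31 dogs in 4 groups. DESeq2 1.42.0, which replaces outlying counts in groups of this size (108 genes, 6 of the 79 called), and limma-voom 3.58.1 were alternatives. Libraries held 14524659 to 41533599 counts in the overweight dogs, so that genes with few counts have wide errors. The test was checked on simulated counts of these dogs.

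Named genes were the 10 with a symbol and the smallest P-values, genes leading the study's comparison with CHST9 and RHOA, from each list those among the 3 smallest P-values that were under 0.05 or otherwise the first, the most abundant gene of some lists, the 5 smallest P-values of the interaction and 2 reference genes. Members, lists and this rule were chosen with earlier results of these data known. The paper used batch as a covariate, but the dogs of its pilot batch are not named, so no batch term was used and the pilot's part in the results was not tested. The 10 dogs on the high side of the small RNA division were 5 cases and 5 controls. The paper gives the same number and make-up for its pilot batch, and reports a batch effect on its plot of principal components. Whether they are the same dogs is not given in the sources used here. The planned share of mitochondrial genes was replaced by the small RNA level, since no row has a mitochondrial symbol, and the haemoglobin share rests on HBM alone. Alternatives were other tools, normalizations and filters, covariates (sex, age, score, small RNA division, platelet marker score, dog number), all 31 dogs together, and leaving out dogs. The pair of controls 09 and 17 was left out after seeing the data. The smallest P-value that the exact permutation of 8 against 8 dogs allows is far below the threshold. Some genes are not reported here.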

Additional observations from a re-analysis of the deposited data

Results flagged for a closer look

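Each group of 8 overweight dogs was examined for a dog whose gap to its nearest neighbour took a larger share of the group's range than Dixon's critical value allows. Of 126 groups examined over the named genes, the library measures and the components, 15 had such a dog, and chance gives about 1 in 20.

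Control 03 accounted for 8 of them. The gap took a share of 0.675 of the range for the percentage of counts on the 20 most abundant genes (42.6% against 27.2% in the nearest control), 0.831 for the HBM percentage, 0.528 for the number of genes with at least 10 counts (12119 against 13708) and 0.565 for the first principal component. Among the genes it took 0.547 for ALAS2 and 0.603 for ITGB1, in which control 03 was highest, 0.574 for ALG6, in which it was also highest, and 0.659 for HNRNPH1, in which it was lowest.

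Control 09 was highest of the controls for IL1R2, with a share of 0.615 and a level of 5.89 log2 CPM against 2.88 in the next control, and for the annexin gene ANXA1, with a share of 0.581. Control 17 was lowest for ARHGAP29, with a share of 0.655 and −1.70 log2 CPM against −0.17. Among the cases, case 07 was highest for ANXA1 (0.671), case 09 highest for BANK1 (0.527), case 05 lowest for RHOC (0.538) and case 08 lowest for ARHGAP1 (0.533). No reason for any of these positions was tested.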

How the results depend on the processing

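Genes past the adjusted threshold among the overweight dogs, 0 with edgeR, numbered 79 with DESeq2, 3 with all 31 dogs in 4 groups (ARHGAP29, MMRN1 and the kinase gene MAPK6), 1 on the low side of the small RNA division (GHR, the growth hormone receptor gene), 3 without case 01 and control 03, and 0 to 74 with 1 dog left out. The number was 0 with limma-voom, both other normalizations, both other filters, each covariate and without controls 09 and 17. The count at an unadjusted P-value under 0.05, 1036, was 2245 with no filter, 651 with the platelet score in the model, 1761 on the low side, 1912 without case 01 and control 03, and 820 to 2249 with 1 dog left out. The share of these that was higher in the cases, 53.3%, was 63.6% on the low side, 44.7% with the platelet score in the model and 48.2% to 62.3% with 1 dog left out.

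Cases and controls share 5 dog numbers, which are only ranks. Same-numbered dogs deviated from their group means with correlations from −0.47 to 0.22, and no case was most like the control of its own number. With the dog number as a block for these 5 pairs, edgeR called 0 genes, and 291 lay under 0.05 before adjustment, 68.0% of them higher in the cases, and the platelet medians were 0.66, 0.20 and 0.56.

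The interaction count of 0 was 3 with DESeq2, and its 538 genes at an unadjusted P-value were 1630 with no filter and 873 without case 01 and control 03. Under 6, DESeq2 called 3 genes. Without case 01 and control 03 the first component differed by 17.2 and the percentage of the 20 most abundant genes by 5.12 points. Control 03 stood apart on these same measures, so both are given as values, with no test.

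Of 890 log2 fold changes of named genes under alternatives other than leaving out 1 dog, 861 kept their sign and their side of the adjusted threshold, 23 passed it (20 of them with DESeq2), and 6 turned sign. With the platelet score in the model RHOA was at 0.013, GUSB at −0.0095, HNRNPH1 at 0.065, ANXA1 at 0.17 and PPBP at −0.50, and without controls 09 and 17 PPBP was at −0.10. With 1 dog left out ALAS2 ranged from −0.065 to 2.15 and the erythroid median from −0.074 to 1.38, the lowest of both without case 01. The class difference of ST6GALNAC4, 0.03, was −0.071 with age and −0.14 with the small RNA division as a covariate. The causes of these shifts were not tested.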

Other observations

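Other named list members with no unadjusted P-value under 0.05 in the overweight dogs lay at the following log2 fold changes: the haemoglobin chaperone gene AHSP at 0.95 (SE 0.67, and 1.82 without control 03 and 0.51 without case 01), the cytotoxic granule gene GZMB at 0.73 (SE 0.40), the eosinophil receptor gene IL5RA at −0.64 (SE 0.33, and −1.03 without case 07), the chemokine receptor gene CXCR2 at −0.14 (SE 0.15, and −0.065 without control 03) and ANXA1 at −0.32 (SE 0.22, and −0.05 without control 09).

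GHR, which falls outside the rule for named genes and was chosen after its values were seen, had a log2 fold change of 1.01 (SE 0.43, unadjusted P = 0.0316) with all 16 dogs. Its log2 fold change was 1.91 (adjusted P = 0.0492) on the low side of the small RNA division, a side that lacks control 03. Without control 03 alone it was 1.58 (adjusted P = 0.0343). MPO was higher in the cases of both classes, with a log2 fold change of 3.08 (SE 0.84, unadjusted P = 0.00193) in the dogs under 6, and the granulocyte precursor markers had a median of 1.40 there with 3 of 6 higher, where 2.34% of all genes were.

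Without control 03 the 74 genes that edgeR called held 4 platelet receptors (ITGB1, ITGB3, ITGA2B and GP1BB), 4 granule genes (MMRN1, EGF, ENDOD1 and the clotting factor gene F13A1) and 5 structural genes (GSN, STON2, PTGS1, PRKG1 and TUBB1), where 0.495% of all genes were called higher. They held 0 of the 10 tested erythroid markers and 0 of the 10 tested platelet markers. They did hold the haem synthesis gene CPOX (log2 fold change 0.99, adjusted P = 0.0498) and the water channel gene AQP1 of red cells and endothelium (1.49, adjusted P = 0.0498), both outside the fixed lists and picked with these values in view.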
